A study of Mus musculus with 12 samples.

Results

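C1q-like proteins and cerebellins are secreted proteins that bridge the synaptic cleft, and 9 genes of this system were followed here in retinal cells after optic nerve crush. The 9 genes, of 54232 in the deposited count table, were 6 secreted ligands (C1ql1, C1ql2, C1ql3, Cbln1, Cbln2 and Cbln4), the presynaptic receptors Nrxn2 and Nrxn3, and the postsynaptic receptor Adgrb3. They were taken by name, and their levels across the same 4 groups were known when they were chosen. Differences between groups in these 9 genes are therefore given as a description, with no p-value printed. Where fitted calls among them are counted, the share over all tested genes is given and nothing is read from the counts. Tests are given for the 46 of 57 partner genes of the same pathways, not among the 9, that passed a filter on low counts. The partner genes were also chosen with earlier results of these data known, which limits what their tests can show.

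Both ligand families carry a C1q-like domain and assemble into multimers, and both act between the presynaptic and the postsynaptic membrane. Cerebellins bind neurexins on one side and delta-type glutamate receptors on the other, while C1q-like proteins bind the adhesion receptor Adgrb3 and, for some members, neurexin 3 and kainate receptors. Neurexins are adhesion molecules of the presynaptic membrane with several competing ligands, among them neuroligins and leucine-rich transmembrane proteins. In the retina, ganglion cells receive their input from bipolar and amacrine cells at synapses of the inner plexiform layer, where such organisers act.

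Messenger RNA was sequenced from 12 pools of picked cells of adult male wild-type mice, 3 pools in each of 4 groups: AAV-Olig1 and AAV-GFP at 7 days after optic nerve crush, and AAV-Olig1 and AAV-GFP at 14 days after it. All animals received an AAV2 virus in the vitreous and the crush, so no group was uninjured or free of virus, and the labels record 14 days of virus for every pool, so the time of injection relative to the crush may differ between the days. Cells were separated with CD90.2 beads and picked with a Unipick device. The labels differ on the number of cells per pool, within 10 to 20, and do not say how many animals a pool came from, so the spread between libraries may be partly technical. They also do not name the promoter of either virus.

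Total counts per library ran from 12534515 to 27602459, and levels are given as CPM, the reads of a gene scaled to the library's total. A count of 0 allowed up to 3 counts, or 0.109 to 0.239 CPM depending on the library. The transgene separated the arms: Olig1, whose protein is a helix-loop-helix factor best known from oligodendrocytes, had 1029, 249 and 723 CPM with Olig1 and 0.320, 0 and 0.351 CPM with GFP at day 7, and 56.4, 519.8 and 120.1 CPM with Olig1 and 0, 0.0362 and 0.251 CPM with GFP at day 14. The labels call all pools ganglion cells. Of 12 ganglion cell markers, Pou4f3 was at 0 in every library, and the summed markers came to 1190 to 3153 CPM with Olig1 and 201 to 297 CPM with GFP at day 7, and to 159, 2705 and 136 CPM with Olig1 and 183 to 245 CPM with GFP at day 14. Isl1, which bipolar cells also express and which is in both lists, was up to 200.4 CPM of the GFP sums. Without it, a choice made after seeing the values, the sums were 1187 to 3093 CPM with Olig1 and 24.3 to 252.5 CPM with GFP at day 7, and 128, 2635 and 107 CPM with Olig1 and 25.4 to 62.8 CPM with GFP at day 14, so that the arms did not overlap at either day. Müller glia markers summed to 42256 to 120302 CPM over all libraries. The 12 amacrine markers summed to 1632 to 3898 CPM with Olig1 and 357 to 764 CPM with GFP at day 7, and to 678 to 1718 CPM with Olig1 and 351 to 990 CPM with GFP at day 14. The 10 rod markers summed to 545 to 786 CPM with Olig1 and 10450 to 53424 CPM with GFP at day 7, and to 864 to 10764 CPM with Olig1 and 3421 to 46628 CPM with GFP at day 14. The 11 bipolar cell markers summed to 239 to 531 CPM with Olig1 and 1228 to 2151 CPM with GFP at day 7, and to 256 to 530 CPM with Olig1 and 1564 to 5715 CPM with GFP at day 14. The 8 cone markers summed to 20.5 to 96.9 CPM with Olig1 and 1342 to 1862 CPM with GFP at day 7, and to 30.3 to 711 CPM with Olig1 and 1132 to 5578 CPM with GFP at day 14, and for both lists the arms did not overlap at either day. Microglia and macrophage markers passed 1000 CPM in 4 libraries (Olig1 day 7 replicate 3, GFP day 7 replicate 3, and GFP day 14 replicates 2 and 3). B and plasma cell markers reached 132512 CPM in GFP day 14 replicate 3. Levels in a pool cannot tell fewer cells of a type from less RNA per cell.

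The upstream windows of 3 of these genes are shown because Olig1 belongs to a protein class that reads E-boxes (CANNTG) and because the genes contrast in level between the arms: C1ql2 had 2 counts in all GFP libraries together, while the arms of Nrxn3 and Adgrb3 overlapped at both days. RefSeq windows on GRCm38.p6 were found for 5 of the 9 genes (Adgrb3, C1ql2, C1ql3, Cbln4 and Nrxn3), and each sequence gives the 250 bases before a transcription start, 5′ to 3′ on the gene's strand, with every CANNTG in capitals. The windows are chr1:120340332-120340581 (plus strand) for C1ql2, chr12:89812233-89812482 (plus strand) for the most downstream of 3 Nrxn3 starts, and chr1:25829708-25829957 (minus strand) for Adgrb3.
C1ql2: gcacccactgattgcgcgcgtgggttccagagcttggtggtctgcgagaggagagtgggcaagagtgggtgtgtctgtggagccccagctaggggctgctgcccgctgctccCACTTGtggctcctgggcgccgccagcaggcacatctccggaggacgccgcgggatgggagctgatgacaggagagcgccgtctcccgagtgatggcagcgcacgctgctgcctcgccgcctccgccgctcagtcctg
Nrxn3: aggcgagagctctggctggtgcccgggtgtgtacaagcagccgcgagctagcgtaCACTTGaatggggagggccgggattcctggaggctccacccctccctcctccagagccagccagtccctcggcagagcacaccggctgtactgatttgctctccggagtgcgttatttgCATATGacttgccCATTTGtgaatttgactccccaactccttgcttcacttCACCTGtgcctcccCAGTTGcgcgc
Adgrb3: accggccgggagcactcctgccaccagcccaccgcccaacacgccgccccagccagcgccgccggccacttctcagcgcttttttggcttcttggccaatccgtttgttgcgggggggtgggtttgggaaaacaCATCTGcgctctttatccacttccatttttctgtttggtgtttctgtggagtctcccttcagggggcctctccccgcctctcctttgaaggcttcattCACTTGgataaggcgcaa
The motif reads the same on both strands. C1ql2 held 1 match, whose first base lay 138 bases before the start, Nrxn3 held 5 in the window shown, and Adgrb3 held 2, at 116 and 18 bases. Over all 32851 windows of this length, 66.2% held at least 1 match, 31.8% at least 2 and 1.15% at least 5. The other starts of Nrxn3 held 0 and 1 matches, and the windows of C1ql3 and Cbln4 held 1 each. All 250 bases of the C1ql3 window lay in GENCODE exons of C1ql3 or Gm37811, so it was not outside the annotated gene. The letters CACTTG, searched after these sequences had been read, were in the 3 windows shown and in that of C1ql3, were not in those of Cbln4 and the other 2 Nrxn3 starts, and were in 11.6% of all windows on either strand. These are matches of letters and not binding sites.

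Of the secreted ligands, C1ql1 had the highest level in every library with any ligand. C1ql1 (ENSMUSG00000045532, chr11:102939264-102946688, minus strand on GRCm38) encodes the ligand that climbing fibres use at their synapses in the cerebellum. It had 736, 269 and 241 CPM with Olig1 and 47.2, 199 and 38.6 CPM with GFP at day 7. At day 14 it had 489, 163 and 348 CPM with Olig1 and 0, 133 and 63.3 CPM with GFP. Every Olig1 library lay above every GFP library of its day, but the lowest Olig1 library of day 14, at 163 CPM, lay below the highest GFP library of day 7, at 199 CPM. Group means were 415 ± 278 CPM with Olig1 and 94.8 ± 90.0 CPM with GFP at day 7, and 333 ± 164 CPM with Olig1 and 65.3 ± 66.3 CPM with GFP at day 14 (SD, n = 3 each). The fitted log2 fold change was 2.16 ± 1.56 (SE) at day 7 and 2.28 ± 1.57 at day 14. It was 3.52 at day 7 without GFP day 7 replicate 2, the highest GFP library, and 1.69 at day 14 without GFP day 14 replicate 1, the library at 0. C1ql1 was thus the one C1q-like or cerebellin gene with a level above 10 CPM in GFP pools, which 5 of the 6 GFP libraries showed.

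**Figure D1:**
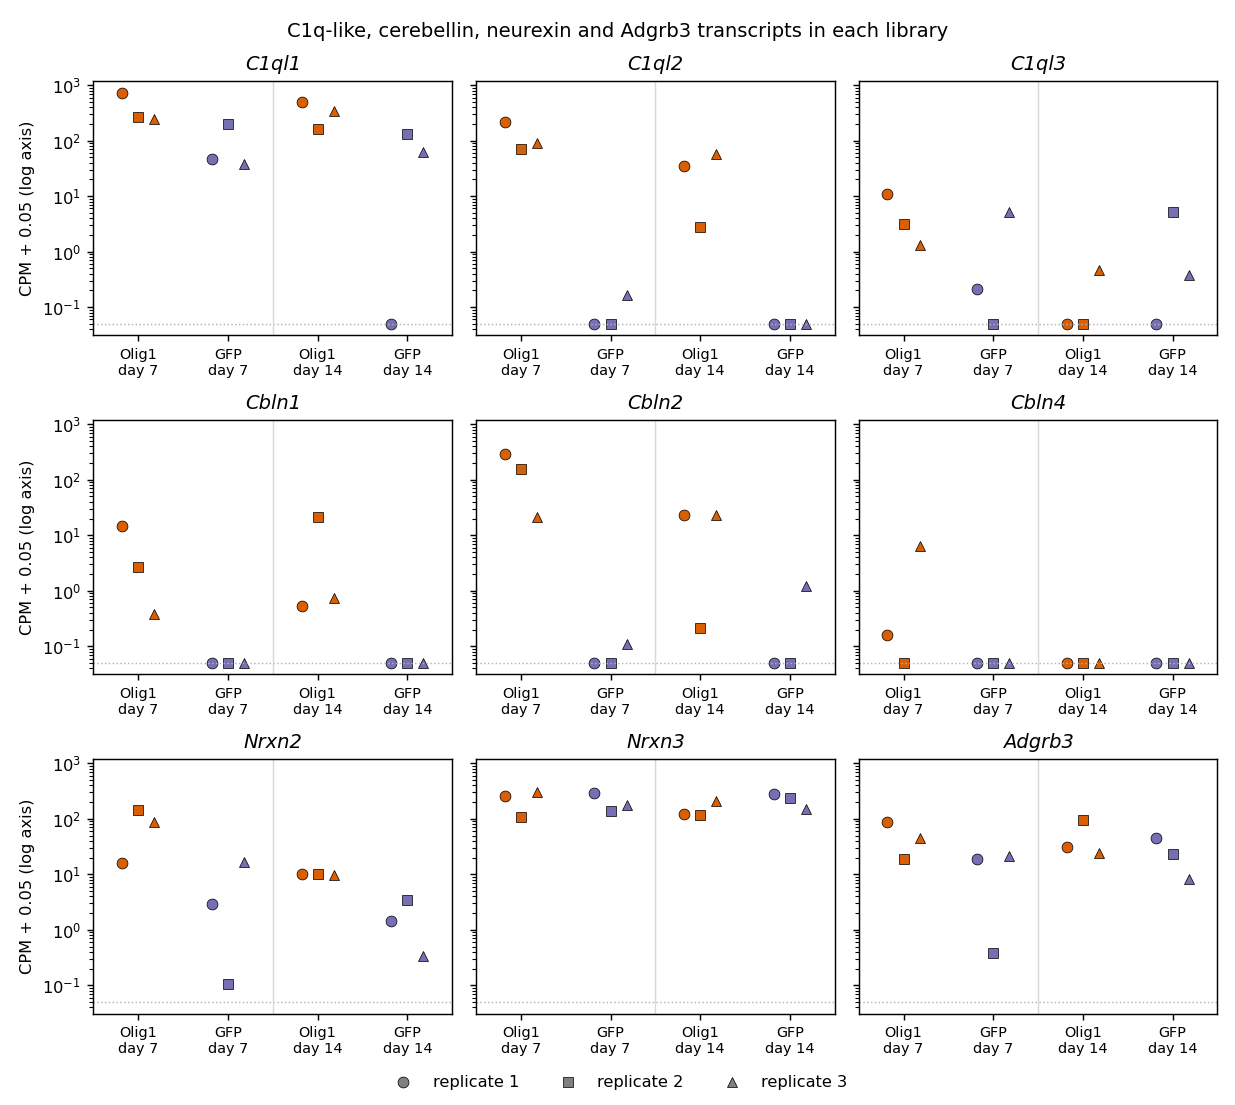
CPM of each of the 9 genes in each of the 12 libraries, with 0.05 CPM added so that a library at 0 sits on the dotted line (log axis). Each point is 1 library, orange for Olig1 and violet for GFP. Its shape gives the replicate number, which was not used to pair libraries in the main fit. C1ql2 and Cbln1 separate the arms at both days, while Nrxn3 lies between 106 and 299.6 CPM in all 12 libraries.

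C1ql2 was measured in every Olig1 library and was at or near 0 in GFP pools. C1ql2 (ENSMUSG00000036907, chr1:120340582-120343174, plus strand) is known from mossy fibre terminals of the hippocampus, where it binds neurexin 3 and recruits kainate receptors. It had 215, 72.1 and 90.7 CPM with Olig1 and 0, 0 and 0.117 CPM with GFP at day 7. In the day 14 libraries the gene had 35.0, 2.73 and 58.0 CPM with Olig1 and 0 in all 3 GFP libraries, in which 0 counts allow up to 0.0389 CPM over the group. The 6 GFP libraries together held 2 C1ql2 counts, both in 1 library. Means were 126 ± 77.4 CPM with Olig1 and 0.0390 ± 0.0676 CPM with GFP at day 7 (SD, n = 3 each), and 31.9 ± 27.8 CPM with Olig1 at day 14. The arms did not overlap at either day. Within the Olig1 arm, the highest day 14 library, at 58.0 CPM, lay below the lowest day 7 library, at 72.1 CPM.

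C1ql3 did not share this pattern. C1ql3 (ENSMUSG00000049630, chr2:13003457-13011806, minus strand), a ligand of Adgrb3 found in cortical and other forebrain neurons, had 11, 3.11 and 1.28 CPM with Olig1 and 0.160, 0 and 5.15 CPM with GFP at day 7. The day 14 levels were 0, 0 and 0.426 CPM with Olig1 and 0, 5.22 and 0.334 CPM with GFP. The arms overlapped at both days. The fitted log2 fold change was 1.73 ± 2.63 at day 7 and -3.61 ± 2.84 at day 14. The day 14 value was -0.61 without GFP day 14 replicate 2. Without the 4 microglia-rich libraries, a setting chosen after seeing the data, the 1 GFP library left had no count against 8 in the Olig1 libraries, a bound of 1.06-fold, so no direction is read there. Its exons share 1547 bases with Gm37811 and 80 bases with Gm37824 on the opposite strand, which had 350 and 213 counts over all libraries, and the strand setting of the counting is not given, so some of these reads cannot be assigned with certainty.

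Among the cerebellins, Cbln2 was the most abundant and was close to 0 in GFP pools. Cbln2 (ENSMUSG00000024647, chromosome 18, plus strand) links neurexins to delta receptors in many forebrain circuits. It had 296, 156 and 20.9 CPM with Olig1 and 0, 0 and 0.0585 CPM with GFP at day 7, where the 1 GFP value above 0 is a single count. Among the day 14 libraries it had 22.8, 0.163 and 23.5 CPM with Olig1 and 0, 0 and 1.17 CPM with GFP. The arms were apart at day 7 and overlapped at day 14, because Olig1 replicate 2, at 0.163 CPM, lay below GFP replicate 3, at 1.17 CPM. Set against total counts, the pooled ratio was 9131 at day 7, with a 95% exact binomial interval of 1638 to 360718 that covers counting error only, and it was 2083 without GFP day 7 replicate 3, as a bound over 0 counts. At day 14 the fitted log2 fold change was 4.94 ± 1.95. Without GFP day 14 replicate 3, which held all 28 GFP counts, the bound was at least 254-fold higher with Olig1. There the floor of 3 counts was taken over the other 2 GFP libraries. That bound covers counting error only and comes from leaving out the 1 GFP library with the gene, so no size is read from it.

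Cbln1 was low with Olig1 and had no count in any GFP library. Cbln1 (ENSMUSG00000031654, chr8:87468405-87472609, minus strand), the cerebellin of cerebellar granule cells, had 14.4, 2.63 and 0.338 CPM with Olig1 at day 7 and 0.485, 20.9 and 0.692 CPM with Olig1 at day 14. All 6 GFP libraries were at 0, which allows up to 0.0554 CPM at day 7 and 0.0389 CPM at day 14 over each group. With the floor of 3 counts taken over the GFP group, the level was at least 119-fold higher with Olig1 at day 7 and at least 215-fold higher at day 14. These bounds cover counting error only and not the spread between pools. Single libraries carried these bounds: without Olig1 day 7 replicate 1 the day 7 bound was 25.1, and without Olig1 day 14 replicate 2 the day 14 bound was 15.0.

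Cbln4 was found in 1 group. Cbln4 (ENSMUSG00000067578, chr2:172036233-172043466, minus strand), which binds neurexins and also the netrin receptor Dcc, had 0.109, 0 and 6.35 CPM with Olig1 at day 7 and 0 in all 9 other libraries. Of its 96 counts, 94 came from Olig1 day 7 replicate 3. It did not pass the filter on low counts and was not fitted. The arms overlapped at both days.

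The 6 ligands together came to 1272, 503 and 361 CPM with Olig1 and 47.4, 199 and 43.9 CPM with GFP at day 7, and to 548, 187 and 430 CPM with Olig1 and 0, 138 and 64.8 CPM with GFP at day 14. C1ql1 made up 53.4% to 66.9% of that sum in the Olig1 libraries and 87.9% to 100% in the GFP libraries of day 7. At day 14 it made up 80.8% to 89.4% in the Olig1 libraries and 96.2% and 97.7% in the 2 GFP libraries with any ligand. Olig1 libraries of day 7 held 5 or 6 of the ligands, those of day 14 held 4 or 5, and GFP libraries held 0 to 4. GFP day 14 replicate 1 had no count of any ligand among its 25507230 counts, and it was also the library with the fewest genes detected, 10129.

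**Figure D2:**
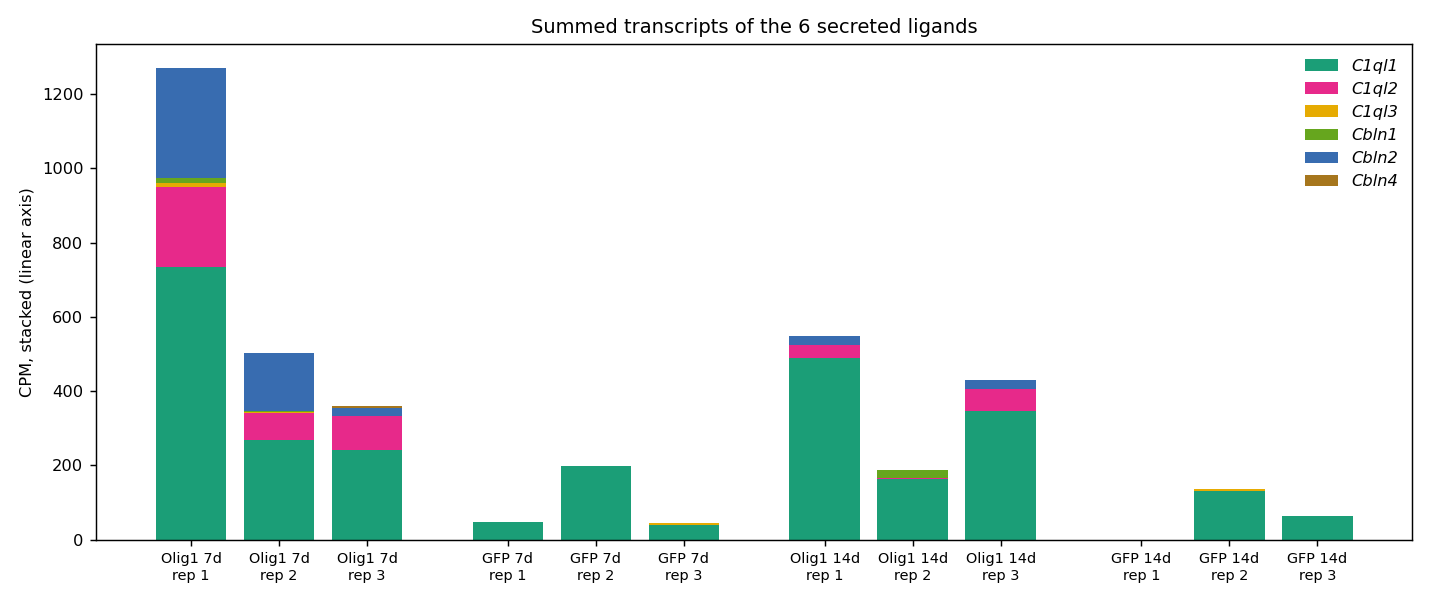
CPM of the 6 secreted ligands stacked for each library (linear axis from 0). C1ql1 fills most of every bar, C1ql2 and Cbln2 add visible segments in Olig1 libraries only, most at day 7, and GFP day 14 replicate 1 has no bar because its sum is 0.

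Nrxn3 was the member with the steadiest level. Nrxn3 (ENSMUSG00000066392, chr12:88722876-90334935, plus strand), a presynaptic receptor that binds cerebellins and C1ql2, had 261, 106 and 299.6 CPM with Olig1 and 296, 141 and 177 CPM with GFP at day 7. At day 14 it had 122, 116 and 206 CPM with Olig1 and 276, 237 and 149 CPM with GFP. The arms overlapped at both days, with means of 222 ± 103 CPM with Olig1 and 205 ± 80.8 CPM with GFP at day 7, and 148 ± 50.5 CPM with Olig1 and 221 ± 65.1 CPM with GFP at day 14 (SD, n = 3 each). The fitted log2 fold change was 0.24 ± 0.47 at day 7 and -0.56 ± 0.47 at day 14. Across 17 alternative fits the day 7 value ran from -0.03, without the microglia-rich libraries, to 0.52, and the day 14 value from -0.87 to -0.43. Nrxn3, which encodes a receptor that C1ql2 binds, was thus measured in all GFP libraries, in which C1ql2 was at or near 0. The counts are per gene and do not separate splice forms of Nrxn3.

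Nrxn2 was lower and more variable. Nrxn2 (ENSMUSG00000033768, chr19:6418731-6544169, plus strand) had 16.1, 145 and 87.7 CPM with Olig1 and 2.82, 0.0547 and 16.3 CPM with GFP at day 7. The arms overlapped there only through the lowest Olig1 library, at 16.1 CPM, and the highest GFP library, at 16.3 CPM. In the day 14 libraries the gene had 10.2, 9.98 and 9.63 CPM with Olig1 and 1.37, 3.37 and 0.292 CPM with GFP, and the arms did not overlap. The 3 Olig1 libraries of day 14 lay close together, at 9.94 ± 0.300 CPM, against 83.0 ± 64.6 CPM in those of day 7 (SD, n = 3 each). The fitted log2 fold change was 4.24 ± 1.51 at day 7 and 2.66 ± 1.41 at day 14. Across 17 alternatives the day 7 value ran from 2.99, without Olig1 day 7 replicate 2, to 6.59, without the microglia-rich libraries, and the day 14 value from 2.20, without GFP day 14 replicate 3, to 3.63, without GFP day 14 replicate 2. Its exons share 207 bases with the antisense gene Gm14964, which had 226 counts over all libraries.

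Adgrb3, a receptor of C1q-like proteins, was present in every library but one arm did not stand apart from the other. Adgrb3 (ENSMUSG00000033569, chr1:25067476-25829707, minus strand) had 89.0, 19.0 and 45.4 CPM with Olig1 and 19.1, 0.328 and 21.3 CPM with GFP at day 7. The day 14 levels were 31.6, 94.0 and 23.8 CPM with Olig1 and 44.7, 23.5 and 8.10 CPM with GFP. The arms overlapped at both days. The fitted log2 fold change was 2.05 ± 1.13 at day 7 and 1.08 ± 1.10 at day 14, and across 17 alternatives the values ran from 1.49 to 2.70 at day 7 and from 0.24 to 1.64 at day 14.

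Per kilobase of exon, which allows genes to be set beside each other, the order of mean levels over the 12 libraries was C1ql1 (154 CPM per kilobase), C1ql2 (19.7), Nrxn3 (15.8), Cbln2 (15.0), Adgrb3 (1.89), Nrxn2 (1.83), Cbln1 (1.08), C1ql3 (0.876) and Cbln4 (0.186). Among GFP pools the order differed: C1ql1 had 64.4 and 44.3 CPM per kilobase at days 7 and 14, Nrxn3 16.2 and 17.5, and Adgrb3 0.732 and 1.37, while C1ql2 and Cbln2 stayed at or below 0.135. In the Olig1 libraries of day 7 the neighbours C1ql2 (62.9) and Cbln2 (54.5 CPM per kilobase) differed by less than their SDs, and so did Adgrb3 (2.75), C1ql3 (2.02) and Cbln1 (1.90).

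Of the 9 genes, 4 had every Olig1 library above every GFP library at day 7 (C1ql1, C1ql2, Cbln1 and Cbln2), against 9.4% of 14985 tested genes. At day 14 there were 4 as well (C1ql1, C1ql2, Cbln1 and Nrxn2), against 7.78%. C1ql1, C1ql2 and Cbln1 were apart at both days, against 1.37% of tested genes. In the edgeR fit 1 of the 8 members that passed the filter was called at day 7 and at day 14, C1ql2 each time, where 0.227% and 0.04% of all tested genes were called. Over the mean of both days C1ql2 and Cbln2 were called, where 0.654% of tested genes were. Of 17 alternatives, C1ql2 was called in 13 at day 7, in 6 at day 14 and in 17 over both days, and Cbln2 over both days in 7. The day 7 call of C1ql2 was lost without Olig1 day 7 replicate 1 and without any 1 of the GFP day 7 libraries. Its day 14 call was lost with the replicate block and in 10 of the 12 fits that leave out 1 library, all but those without GFP day 7 replicate 2 and without Olig1 day 14 replicate 2. The call of Cbln2 was lost without the filter and in 9 of the 12, all but those without Olig1 day 7 replicate 3, Olig1 day 14 replicate 2 and GFP day 14 replicate 3. Nothing is read from these counts, since the levels that give them were known when the genes were chosen.

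Between the days, Olig1 libraries had fitted log2 differences of day 14 over day 7 of -0.18 ± 1.50 for C1ql1, -1.82 ± 1.12 for C1ql2, -3.33 ± 1.79 for Cbln2, -3.24 ± 1.44 for Nrxn2, -0.38 ± 0.47 for Nrxn3 and 0.22 ± 1.09 for Adgrb3 (SE). In GFP libraries the same differences were -0.30 ± 1.50 for C1ql1, -1.65 ± 1.36 for Nrxn2, 0.41 ± 0.47 for Nrxn3 and 1.19 ± 1.10 for Adgrb3. No member was called in either day comparison, in which 0.0334% of tested genes were called with Olig1 and 0% with GFP (edgeR, 10.3% at an unadjusted p under 0.05, and 816 genes by DESeq2's Wald test). The log2 difference between the viruses at day 14 minus that at day 7 was 0.12 ± 2.12 for C1ql1, -1.58 ± 1.89 for Nrxn2, -0.80 ± 0.67 for Nrxn3 and -0.97 ± 1.54 for Adgrb3, and edgeR called no gene for it (9.9% at an unadjusted p under 0.05, and 631 genes by DESeq2's Wald test). Days after crush and the timing of the virus cannot be told apart in these differences.

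The levels of the members were set beside the cell type markers of the same libraries. C1ql2 was highest in the 3 Olig1 libraries of day 7, which held 3 of the 4 highest amacrine marker sums. Olig1 day 14 replicate 2 separated ganglion cell from amacrine markers: its ganglion cell sum, 2705 CPM, was the second highest of all libraries, with 2261 CPM of it from Sncg and 444 CPM without that gene, below the 537 to 2336 CPM of the Olig1 libraries of day 7, and its amacrine sum, 678 CPM, was the lowest of the Olig1 arm. In that library C1ql2 was at 2.73 CPM and Cbln2 at 0.163 CPM, the lowest of the Olig1 arm for each, while Cbln1, at 20.9 CPM, and Adgrb3, at 94.0 CPM, were at their highest of all 12. The other Olig1 libraries of day 14 had ganglion cell sums of 159 and 136 CPM, or 128 and 107 CPM without Isl1, with C1ql2 at 35.0 and 58.0 CPM and Cbln2 at 22.8 and 23.5 CPM. Bipolar and cone marker sums, lower in every Olig1 library than in every GFP library of its day, moved with the arms as C1ql1, C1ql2 and Cbln1 did in the other direction. Oligodendrocyte and astrocyte sums were lower in every Olig1 library than in every GFP library at day 7, and overlapped at day 14. Horizontal cell sums were 139 to 221 CPM with Olig1 and 72.6 to 1698 CPM with GFP at day 7. At day 14 they were 3783 to 12592 CPM with Olig1 and 617 to 8573 CPM with GFP. The part of cell type makeup in the members' levels was not tested.

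**Figure D3:**
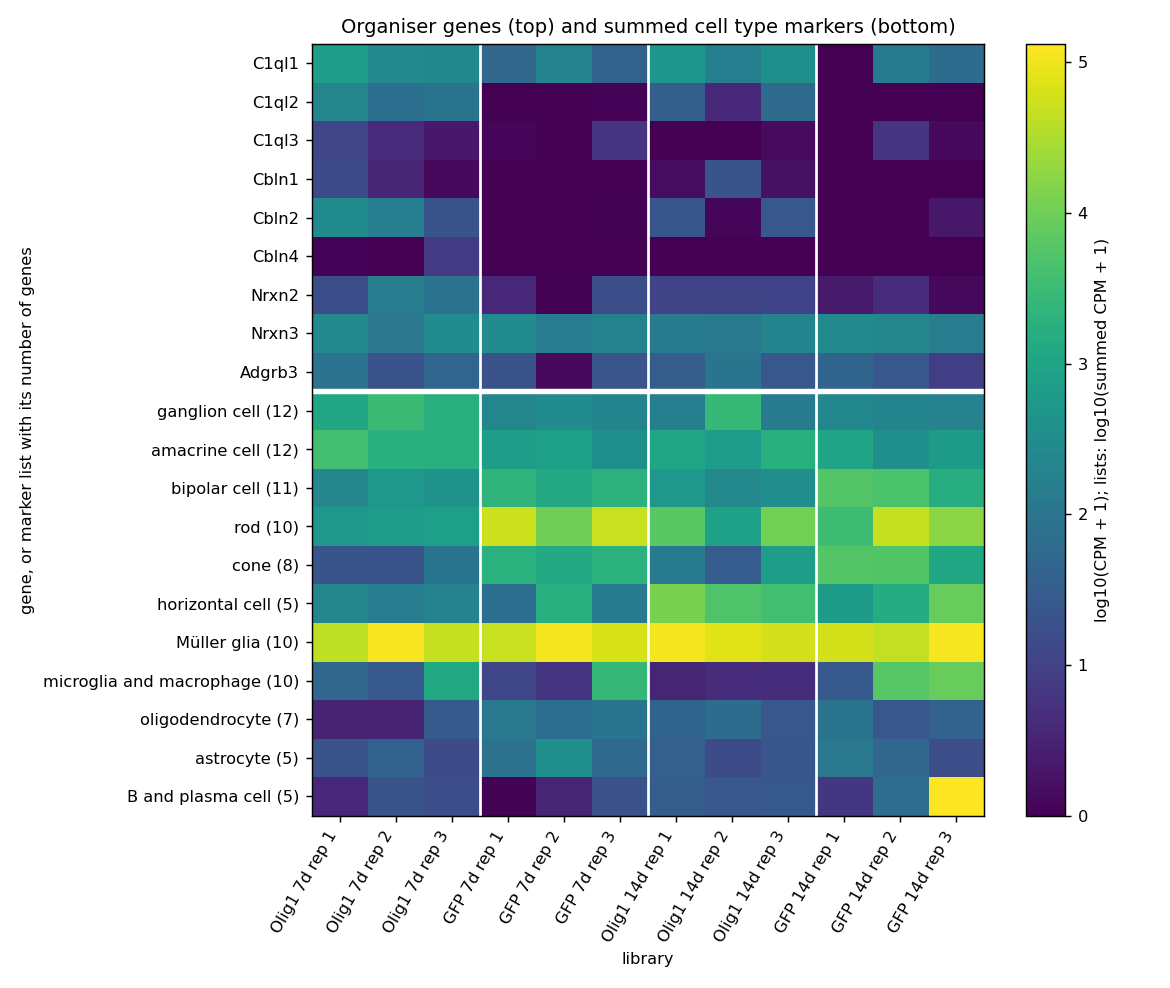
Heat map of log10(CPM + 1) for the 9 genes (top rows) and of log10(summed CPM + 1) for 11 marker lists, with the number of genes in each (bottom rows), over the 12 libraries (columns). Olig1 day 14 replicate 2 is brighter than replicates 1 and 3 of that group for ganglion cell markers and Cbln1, and darker than them for C1ql2 and Cbln2.

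The genes whose levels most resembled each of the 3 members with the highest mean CPM were found by Pearson's r of log2(CPM + 1) over the 12 libraries, among tested genes. For Cbln2 they were Gad1 (r = 0.976), an enzyme of GABA synthesis and one of the amacrine markers, Kcnip1 (0.939), Siah1b (0.937), Elavl2 (0.932) and Dbpht2 (0.928). Gad1 had 1022, 373 and 126 CPM with Olig1 and 0.693, 0.0547 and 0.761 CPM with GFP at day 7, and 154, 1.79 and 76.0 CPM with Olig1 and 0, 0 and 0.0418 CPM with GFP at day 14, so its lowest Olig1 library was the same as that of Cbln2. For C1ql1 they were Gfm2 (0.960), Zmym4 (0.958), Adam22 (0.916), Ints9 (0.906) and Ap1b1 (0.905). For Nrxn3 they were Ccdc73 (0.904), Gabrd (0.897), Hist1h4d (0.879), Plp2 (0.867) and Nr2c2 (0.866). The 12 points share the 4 groups, the cell makeup of each pool and its depth, and these values are a description.

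Outside the 9 genes, 46 of 57 partner genes, also chosen with earlier results of these data known, passed the filter. None of these was called by edgeR between the viruses at an adjusted p of 0.05, and their changes are given as values. For all 46 tested partners the median log2 fold change was 1.19 at day 7, with 30 positive, where the median of all tested genes was -0.03 and 49.0% were positive. At day 14 it was 1.25, with 30 positive, where the median of all tested genes was 0.09 and 52.6% were positive. The partner median of day 14 was 1.19 with genes that had an arm at 0 set to their bound and Lgi2, with 1 count against 0, set to a log2 fold change of 0. At an unadjusted p under 0.05 there were 4 partners at day 7 and 10 at day 14, against 13.9% and 10.4% of all tested genes, and 16 over both days, against 14.9%. DESeq2's Wald test called 4 partners at day 7, 8 at day 14 and 12 over both days, where it called 1139, 842 and 1270 genes in all. It ran without the filter on low counts, so these counts have no share of the same tested genes, and nothing is read from them. Arms did not overlap in 6 tested partners with Olig1 above and 2 with Olig1 below at day 7, against 9.4% and 9.01% of all tested genes, and in 5 above and 1 below at day 14, against 7.78% and 4.12%. Of these, Slitrk5 and Nptx1 had the Olig1 arm above at both days, against 1.37% of all tested genes. The medians of the single lists below were the same with genes that had an arm at 0 set to their bound and Lgi2 at day 14 set to 0.

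Of the ligand families, 2 genes lie outside the 9. C1ql4 had no count in any library, and Cbln3 had 8.27 and 0.352 CPM in GFP day 7 replicates 2 and 3 and at most 0.0532 CPM elsewhere.

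The 5 presynaptic partners, all tested, had a median of 1.51 at day 7 and 1.26 at day 14, and the arms of Cask, Neo1, Apba1 and Apba2 overlapped at both days. Cask, a scaffold protein that binds the tails of neurexins, had 56.9, 10.2 and 23.4 CPM with Olig1 and 0.799, 10.3 and 9.36 CPM with GFP at day 7 (log2 fold change 2.11 ± 1.19). At day 14 its log2 fold change was -0.27 ± 1.14. Apba2, an adaptor protein, had log2 fold changes of 1.85 ± 1.57 at day 7 and 0.78 ± 1.53 at day 14. Apba1, its paralog, had 1.62 ± 1.19 over the mean of both days. Neo1, a netrin receptor, had -0.60 ± 0.99 at day 7 and 1.26 ± 1.00 at day 14, with 0.0058 at day 14 at the lowest of 17 alternatives. Dcc, its paralog, had 0, 0 and 2.07 CPM with Olig1 and 0 in all 3 GFP libraries at day 14, so 1 library carried its level and the arms overlapped.

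Postsynaptic receptors of the ligands, 5 of 6 of them tested, had a median of 0.80 at day 7 and 2.16 at day 14. Grid1, a delta receptor that cerebellins bind, had 6.20, 0.878 and 0.743 CPM with Olig1 and 13.9, 11.2 and 0.293 CPM with GFP at day 7, and 0.0485, 0 and 0.0532 CPM with Olig1 and 0, 7.86 and 20.5 CPM with GFP at day 14. The 2 GFP libraries with Grid1 at day 14 were the microglia-rich ones, and the difference did not pass (edgeR adjusted p = 0.438). Adgrb2, a paralog of Adgrb3, overlapped between the arms at both days (log2 fold change 1.08 ± 1.82 at day 7 and 3.10 ± 1.95 at day 14). Its day 7 value ran from 0.22, without Olig1 day 7 replicate 1, to 1.76, without GFP day 7 replicate 1, and its day 14 value was 2.14 without Olig1 day 14 replicate 2. All 79 GFP counts of day 14 came from replicate 2, at 2.86 CPM. Without that library the bound was at least 134-fold higher with Olig1, with the floor taken over the GFP libraries left. That bound covers counting error only and comes from leaving out the 1 GFP library with the gene, so no size is read from it.

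Other neurexin ligands, 13 of 15 tested, had a median of 1.40 at day 7 and -0.70 at day 14. Nlgn2, the neuroligin of inhibitory synapses, had 34.0, 181 and 42.6 CPM with Olig1 and 26.2, 13.2 and 1.54 CPM with GFP at day 14 (log2 fold change 2.81 ± 1.18, edgeR adjusted p = 0.438). Nlgn1, the neuroligin of excitatory synapses, had log2 fold changes of -1.48 ± 0.86 at day 7 and 0.02 ± 0.84 at day 14, and its arms overlapped. Clstn3, a calsyntenin, had a log2 fold change of 2.79 ± 2.09 at day 7 with arms that overlapped, and -0.55 without Olig1 day 7 replicate 2. At day 14 Clstn3 had -0.70 ± 1.97. Clstn2, its paralog, had 0, 102 and 3.19 CPM with Olig1 and no count with GFP at day 14, so 1 library carried its level.

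The receptor phosphatases and their ligands, 13 of 16 tested, had a median of 0.46 at day 7 and 2.32 at day 14. Slitrk5, a leucine-rich ligand of receptor phosphatases, had 18.8, 14.4 and 4.80 CPM with Olig1 and 0 in every GFP library at day 7. That was at least 236-fold higher, with the floor of 3 counts taken over the group (counting error only). At day 14 it had 1.02, 27.5 and 0.851 CPM with Olig1 and 0, 0.0725 and 0.0418 CPM with GFP, a ratio of pooled counts of 286 (95% exact binomial interval 97.4 to 1389, counting error only). Olig1 replicate 2 carried that ratio, which was 24.1 without it (interval 7.63 to 122). Its edgeR adjusted p was 0.185 at day 7, 0.438 at day 14 and 0.0518 over both days. Ptprf, a receptor phosphatase, had 71.1, 193 and 137 CPM with Olig1 and 23.1, 39.1 and 18.9 CPM with GFP at day 14 (log2 fold change 2.32 ± 0.69, edgeR adjusted p = 0.438). Ptprd had log2 fold changes of -1.81 ± 0.79 at day 7 and -0.67 ± 0.77 at day 14.

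Of the other secreted organisers, all 7 tested had positive values at day 7, with a median of 3.72, and 6 had at day 14, with a median of 2.25. Sparcl1, also called hevin and known as an astrocyte protein that joins neurexins to neuroligins, had 777, 657 and 268 CPM with Olig1 and 82.9, 59.2 and 15.8 CPM with GFP at day 7 (log2 fold change 3.72 ± 0.85, edgeR adjusted p = 0.0920). In the day 14 libraries the gene had 147, 413 and 117 CPM with Olig1 and 192, 33.4 and 86.0 CPM with GFP, and the arms overlapped. Lgi2 had 11.4, 1.91 and 8.85 CPM with Olig1 and no count with GFP at day 7, and was seen with 1 count at day 14. Nptx2, a neuronal pentraxin, had 14.8, 2.04 and 0.213 CPM with Olig1 and 0, 0.0725 and 0.251 CPM with GFP at day 14 (log2 fold change 5.41 ± 2.73), and the arms overlapped. Nptx1, its paralog, had 3.42, 1.12 and 4.73 CPM with Olig1 and 0, 0 and 0.410 CPM with GFP at day 7, and 5.28, 2.85 and 18.7 CPM with Olig1 and 0, 0.869 and 0 CPM with GFP at day 14.

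The complement C1q chains, which share the C1q domain with these ligands but act in immune tagging, are themselves in the microglia list, and were high in the 4 libraries rich in microglia markers. C1qc had 2.45, 1.99 and 180.4 CPM with Olig1 and 0.0533, 0.328 and 169 CPM with GFP at day 7, and 0.581, 0.448 and 0.372 CPM with Olig1 and 0.196, 1237 and 1656 CPM with GFP at day 14. The log2 fold change at day 14 was -11.18 ± 4.09 (edgeR adjusted p = 0.438) and 1.40 without the microglia-rich libraries. C1qb had -10.94 ± 4.18 at day 14, and 2.73 without those libraries. C1qa had -5.58 ± 2.28 over the mean of both days, and neither gene passed an adjusted p of 0.05 in the edgeR fit, while each passed by DESeq2's Wald test, 1 of 17 alternatives. For C1qa, leaving out those libraries leaves no GFP count at day 14, so no direction is read there. For C1qb and C1qc, the 1 GFP library left at day 14 had 4 and 5 counts. The libraries were left out by a marker sum that includes the C1q chains themselves. No direction is therefore read from the values of C1qb and C1qc without those libraries either.

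**Figure D4:**
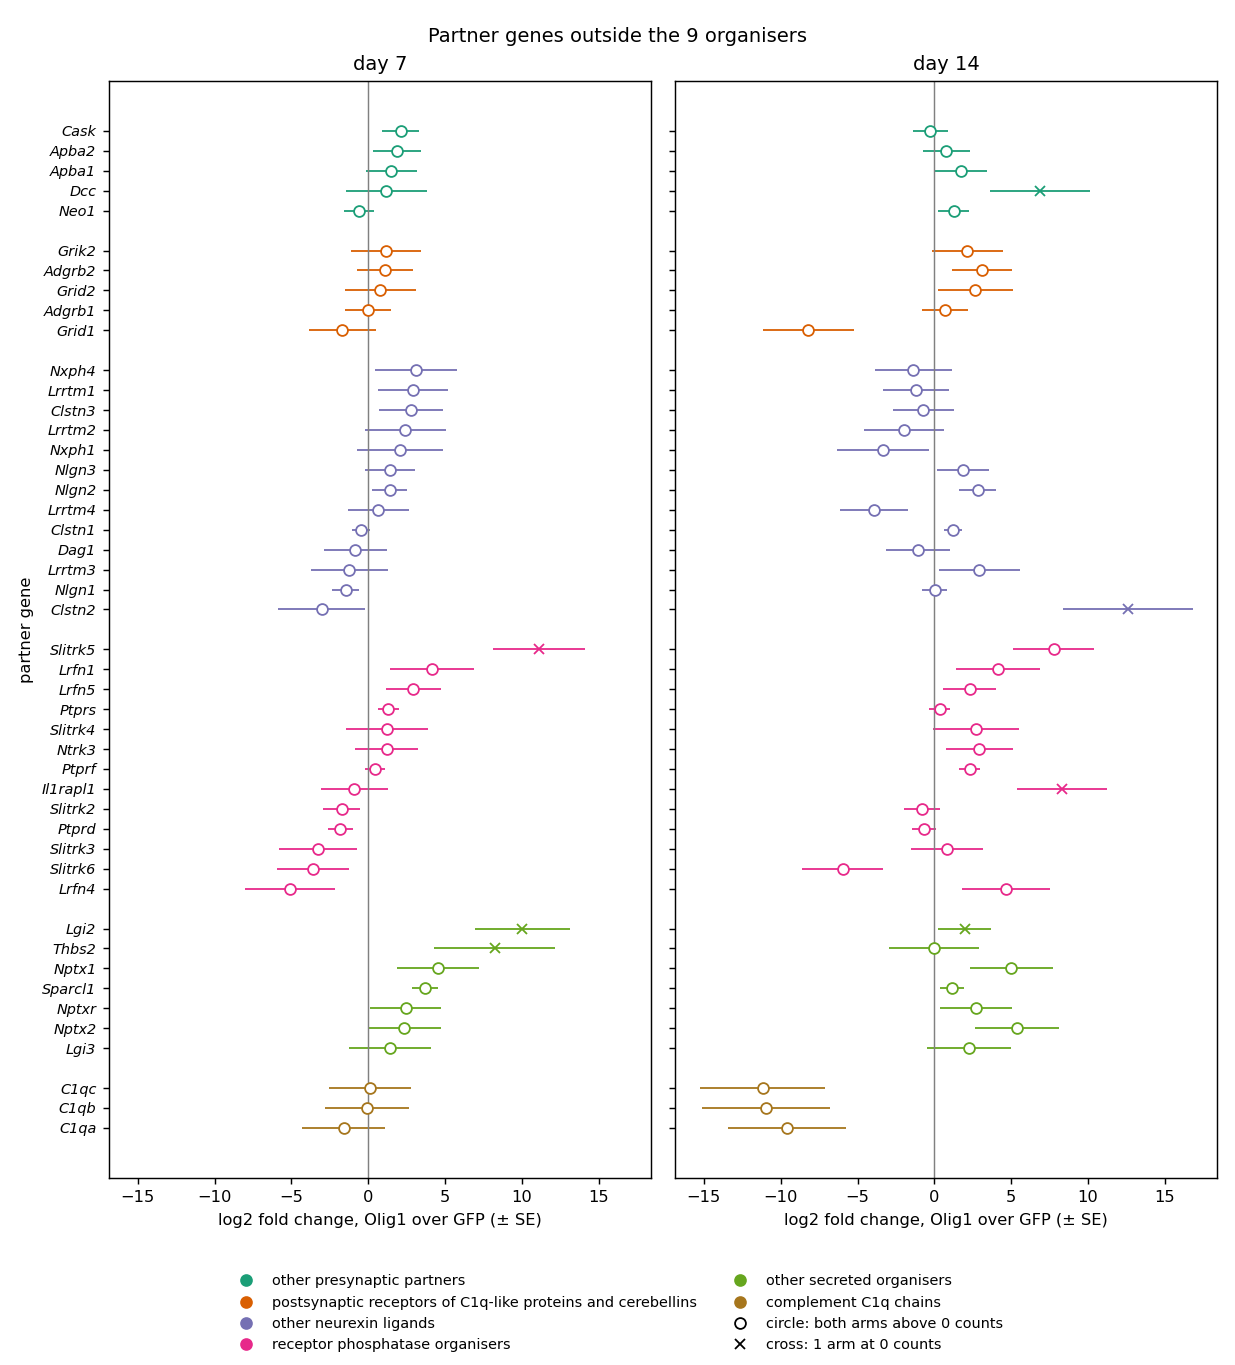
Log2 fold change (Olig1 over GFP, horizontal axis, with SE bars) of the 46 tested partner genes at day 7 (left) and day 14 (right), grouped by list and colour. Most points lie right of 0 at both days (30 of 46 each), none passed an adjusted p of 0.05 in edgeR, and a cross marks a gene with 1 arm at 0 counts, whose fitted value depends on the prior count and is no bound.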

How the data were processed

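Raw read counts per Ensembl gene were deposited in 1 series table and 12 per-sample files, which the authors made with FastQC, HISAT2 and HTSeq on mm10, per the submitters' processing notes. Tool versions, annotation and strandedness were not given in the sources used here. The labels' protocols name SMART-Seq HT chemistry with 20 PCR cycles and mention several batches without assigning them, so batch could not be a term. All values were whole numbers. Of the per-sample files 4 were truncated and 0 genes differed from the series table, which was used throughout.

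CPM was computed from the total counts. Symbols and coordinates came from GENCODE M21 (GRCm38). The main test was the robust quasi-likelihood test of edgeR 4.0.16 (R 4.3.3) after TMM scaling and filterByExpr (minimum count 10), in 1 fit of 12 libraries on 4 groups without covariates. Calls used a Benjamini-Hochberg adjusted p of 0.05 over the 14985 genes tested, of which 8 were members. The common biological coefficient of variation was 1.351. Where the lower arm had 0 counts, a bound from 3 counts over the group replaced the fold. With 1 to 3 counts, a ratio of pooled counts with a 95% exact binomial interval replaced it. Bounds and intervals cover counting error only and not the spread between pools. Exon overlaps, RefSeq promoter windows and marker sums were computed in Python 3.11.15 (pandas 2.3.3, SciPy 1.17.1, matplotlib 3.10.9).

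Alternatives were DESeq2 size factors, the DESeq2 1.42.0 Wald test, no filter, a replicate block, each library left out, and, added after seeing the data, leaving out the 4 libraries above 1000 CPM of microglia markers. The members, the 57 partner genes and the marker lists were chosen with earlier results of these data known. Named partners were the called genes of each list or, with none, the 2 with the smallest p in each virus comparison. Likeness was measured for the 3 members with the highest mean CPM, without predicted gene models. The remaining ligands, and for some genes the values of a comparison for which they were not named, are given beside them. A further partner gene is not reported here.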

Additional observations from a re-analysis of the deposited data

How the results depend on the processing

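Across 17 alternatives, 21 of 24 member fold changes kept their sign in every one, and the 5 changes of sign among 408 values fell on C1ql3 at day 14 and over both days and on Nrxn3 at day 7. Without the 4 microglia-rich libraries GFP day 14 keeps the 1 library with no ligand count, whose spread is assumed to be that of the other groups. By the floor of 3 counts in that library, C1ql1 was then at least 2742-fold higher with Olig1. That bound covers counting error only and rests on 1 GFP library, while the 2 left out had 133 and 63.3 CPM. The changes of sign of C1ql3 at day 14 and over both days in that setting rest on the prior count.

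DESeq2's Wald test called 1139, 842, 1270, 631, 795 and 816 genes (Olig1 against GFP at day 7, at day 14, over both days, the difference between days, and day 14 against day 7 with Olig1 and with GFP), where edgeR called 34, 6, 98, 0, 5 and 0. Of the partners it called 4, 8, 12, 4, 1 and 4, where edgeR called 0 in each, with 4, 10, 16, 6, 4 and 4 at an unadjusted p under 0.05. The cause was not tested. Without the filter edgeR called 218, 23, 401, 40, 59 and 13 genes, and 1 partner at day 7 and 2 over both days. With DESeq2 size factors day 14 against day 7 with Olig1 had 0 calls. Without the microglia-rich libraries, which leaves fewer samples, there were 176 genes at day 14, 349 over both days, 127 for the difference, 15 and 145 for day 14 against day 7 with Olig1 and with GFP. That setting moved the median log2 fold change of all genes by 0.71 at day 14 and 0.47 over both days.

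Leaving out 1 library at a time gave 1 to 81 genes at day 7, 0 to 6 at day 14, 26 to 133 over both days, 0 to 1 for the difference, 0 to 10 and 0 to 2 for day 14 against day 7 with Olig1 and with GFP, and 0 to 1 partners over both days (1 without Olig1 day 7 replicate 3) and 0 to 0 in the other comparisons. Same-numbered libraries of different groups did not deviate together over all tested genes (r from -0.0657 to 0.0441 over 18 pairs). With different numbers r ran from -0.0612 to 0.0747 over 36 pairs. Whether same-numbered libraries shared a batch or preparation was not tested, since the labels assign no batch. The microglia-rich libraries included replicate 3 of Olig1 day 7, GFP day 7 and GFP day 14. With the replicate block edgeR called 1 gene at day 14, 64 over both days and 1 for the difference, and 29 at day 7, with 0 partners in each. Depth limits the levels below 0.109 to 0.239 CPM in a library.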
